A study of Mus musculus with 4 samples.

Results

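The 10 core contractile genes of smooth muscle, Myh11, Myl9, Mylk, Acta2, Tpm1, Tpm2, Cnn1, Tagln, Smtn and Des, were followed by cell class and by day in single cells of the mouse carotid artery after wire injury. They were chosen by name, as parts of the contractile apparatus and its anchorage, and not by their values. Earlier results of these data were known when they were chosen. They are 10 of the 31053 genes listed, of which 20506 had at least 1 UMI (unique molecular identifier, a tag that marks 1 captured RNA molecule). The samples were 4 single-cell libraries of carotid arteries from C57BL/6 mice, male per the study's methods and 11 weeks old before injury, with 1 library of uninjured vessels (day 0) and 1 library each of vessels taken 3, 7 and 14 days after a wire had been passed through the artery, which strips the inner lining and stretches the wall. Vessels of several mice were pooled for each injured time point, those with a thrombus were left out, and digestion and the droplet kit, which reads the 3′ ends of transcripts, were common to all days. The study describes removal of dead cells for its wire injury samples, without naming day 0. With 1 library a day, day and library cannot be told apart, no test between days was possible, and every interval below is a 95% interval that covers counting error only.

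In a smooth muscle cell, force is made where myosin heavy chains pull on filaments of smooth muscle actin, and the pull is switched on when myosin light chain kinase, driven by calcium and calmodulin, phosphorylates the regulatory light chain. Tropomyosins, calponin, transgelin and smoothelin bind the actin filaments, and desmin forms the intermediate filaments that tie the apparatus together. After arterial injury smooth muscle cells are known to lower this gene programme, while fibroblasts that become myofibroblasts are known to take up smooth muscle actin, so the same genes are read in both lineages.

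There were 333, 1689, 3001 and 1138 cell barcodes in the 4 libraries by day, with 2672722 to 27973418 UMIs in total, and 5619 cells were kept. At most 152 barcode sequences were shared by any pair of libraries, and 217 occurred in more than 1. The libraries were clustered together without the 10 contractile genes and 41 related genes, and clusters were named from marker genes as resembling a type, so that "smooth muscle-like" stands for resemblance alone. The smooth muscle-like class held 21, 94, 76 and 78 cells on days 0, 3, 7 and 14, and the fibroblast-like class held 233, 207, 118 and 494. When each contractile gene in turn was left out of the markers, the class held 269 cells every time and 0 cells changed class, so each gene below was measured in cells that it had not helped to choose. When all 10 were left out at once, 247 smooth muscle-like cells remained and the 22 cells of 1 cluster, led by Lcn2 and Vcam1, were named fibroblast-like. A further cluster of 116 cells, led by Eln and Rgs5, met the naming rule for pericytes with Rgs5, Kcnj8, Abcc9 and Cspg4. Of the 6 pericyte markers, Higd1b and Vtn were at 0 in it on day 7, as they were in smooth muscle-like cells. Fibroblast was its second match. It is called by its leading genes here, without a cell type name, and is described on its own. The cells left unnamed were 600, and contractile genes gave 0.171%, 0.706%, 0.260% and 0.355% of their UMIs on days 0, 3, 7 and 14.

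Levels are given in CPM, the UMIs of a gene in all cells of a class and day per 1000000 UMIs of those cells. Since the kit counts 3′ ends, a long and a short transcript each give 1 UMI per molecule, and the levels of different genes can be set side by side without a correction for length. The same 3′ reading means that splice forms of Tpm1, Tpm2, Mylk and Smtn were not separated. The actins are nearly identical in their coding sequence, so the count of Acta2 rests on reads that fit no other actin gene.

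The promoters of contractile genes are known for CArG boxes, the short sites bound by serum response factor, so the windows that could be read were searched for them. RefSeq promoter windows (mouse build GRCm38.p6, 250 bases before to 50 bases after a start site) were matched by symbol for 8 of the 10 genes, Myl9, Mylk, Acta2, Tpm1, Tpm2, Cnn1, Smtn and Des. A CArG box was searched as CC and GG around 6 bases that are each A or T, a pattern that reads the same on both strands, so a match on 1 strand is a match on the other. It was found in the window of Myl9 alone, 1 of 8 (12.5%), against 1.81% of 27018 genes. With at most 1 mismatch allowed it was found in Acta2, Myl9 and Tpm1, 3 of 8 (37.5%), against 23.7% of all genes, which is a description of these windows and not evidence of binding. The boxes and their flanks of 10 bases are given 5′ to 3′ on the gene's own strand, with the box in capitals and the distance counted from the start site to the box's 5′ base.
Acta2, chr19:34255438-34255467 (-), 84 bases upstream, 1 mismatch: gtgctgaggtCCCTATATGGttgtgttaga
Acta2, chr19:34255388-34255417 (-), 34 bases upstream, 1 mismatch: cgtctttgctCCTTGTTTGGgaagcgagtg
Myl9, chr2:156775293-156775322 (+), 161 bases upstream, 0 mismatches: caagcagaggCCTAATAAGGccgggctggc
Myl9, chr2:156775355-156775384 (+), 99 bases upstream, 1 mismatch: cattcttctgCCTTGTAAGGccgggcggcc
Tpm1, chr9:67049415-67049444 (-), 221 bases upstream, 1 mismatch: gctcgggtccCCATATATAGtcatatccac
Tpm1, chr9:67049274-67049303 (-), 80 bases upstream, 1 mismatch: acaagcttttCCAAAAAAGTattggctgtc

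The contractile genes together gave 4.24% of all UMIs of smooth muscle-like cells on day 0 (4.12 to 4.36), 2.58% on day 3 (2.56 to 2.60), 1.41% on day 7 (1.39 to 1.42) and 4.74% on day 14 (4.70 to 4.78). In summed counts the share was thus lowest on day 7 and was on day 14 above that of the uninjured vessel. Acta2 and Tagln, which gave most of these UMIs, were not above day 0 on day 14 when every cell was weighted alike (log2 −0.061 and −0.031). In fibroblast-like cells the share was instead highest on day 7, with 0.0601% on day 0, 0.0946% on day 3, 0.209% on day 7 (0.204 to 0.214) and 0.0793% on day 14. In immune-like cells, used below as the background, since they are not known for a contractile apparatus, the share was between 0.0105% and 0.0154% on every day. This pool held 26 cells on day 0, 23 of them T cell-like, with 32 contractile UMIs, against 1075, 1963 and 390 cells on days 3, 7 and 14. The background of day 0 is thus the least well measured. The plot of levels by class and day shows the smooth muscle-like cells above the other classes for all 10 genes on every day.

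**Figure D1:**
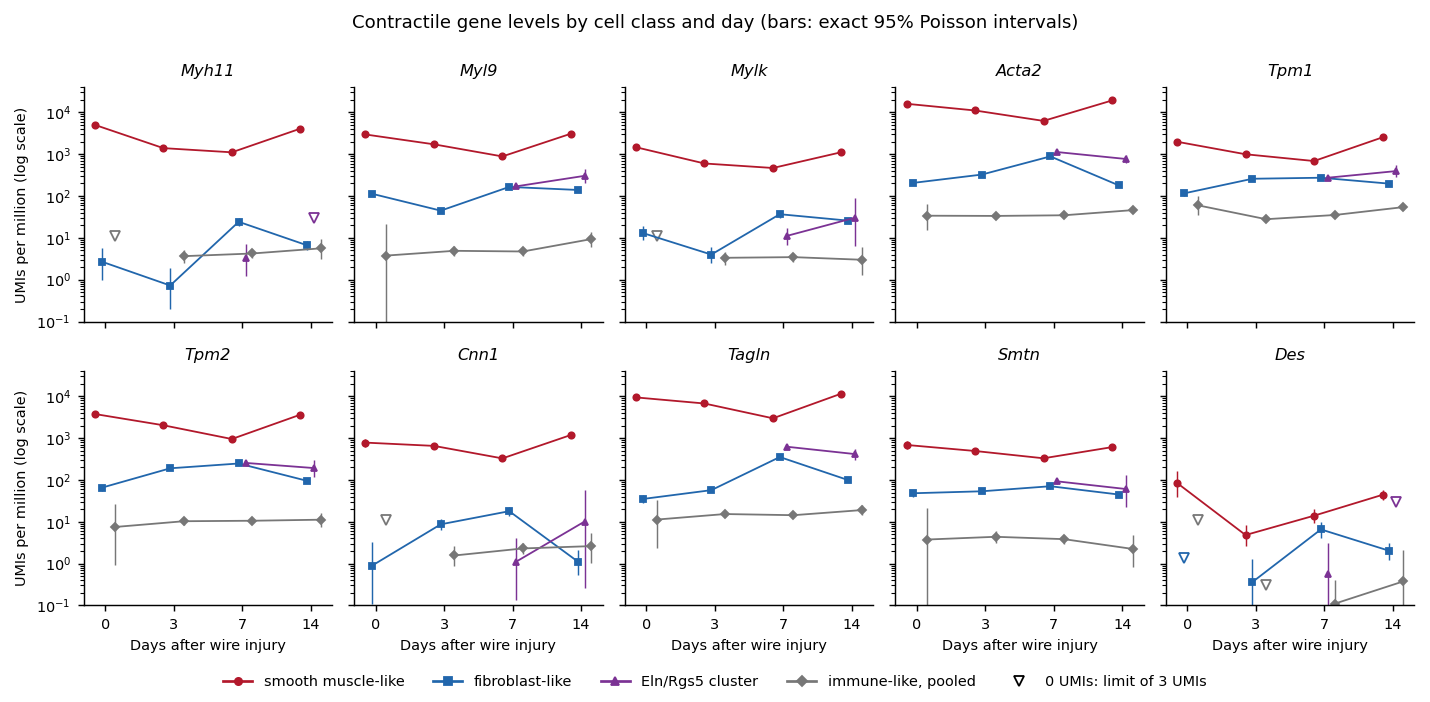
Each panel shows 1 gene: CPM (log scale) against day (evenly spaced) for smooth muscle-like cells, fibroblast-like cells, the Eln/Rgs5 cluster on days 7 and 14, and the pooled immune-like cells, with exact 95% Poisson intervals and open triangles for the limit of 3 UMIs where 0 were counted. Smooth muscle-like levels dip on day 7 and fibroblast-like levels peak there for most genes, for example Acta2 at 6277 and 889 CPM.

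Myh11, the smooth muscle myosin heavy chain, stood in smooth muscle-like cells at 5043 (4624 to 5490), 1401 (1357 to 1447), 1113 (1067 to 1160) and 4101 CPM (3989 to 4215) on days 0, 3, 7 and 14. Its ratio to day 0 was 0.278 on day 3 (0.254 to 0.305), 0.221 on day 7 (0.201 to 0.243) and 0.813 on day 14 (0.744 to 0.891). After Des, Myh11 had the lowest ratio of the 10 on days 3 and 7, and it was still below its day 0 level on day 14. Myl9, the regulatory light chain of smooth muscle myosin, stood at 2975, 1730, 887 and 3104 CPM on days 0, 3, 7 and 14, with a ratio to day 0 of 0.298 on day 7 (0.264 to 0.337) and 1.04 on day 14 (0.930 to 1.17). Mylk, the kinase that phosphorylates this light chain, stood at 1473, 602, 469 and 1121 CPM, with a ratio to day 0 of 0.408 on day 3 (0.346 to 0.484), which turned when every cell was weighted alike (log2 0.088), and 0.761 on day 14 (0.645 to 0.904). Of the motor genes, the light chain was therefore level with day 0 within counting error on day 14, while the heavy chain and the kinase were below it, although both turned in that weighting, to log2 ratios of 0.60 and 0.55.

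Acta2, the actin of the vascular smooth muscle thin filament, was the most abundant of the genes on every day, at 16121 (15365 to 16904), 11142 (11016 to 11269), 6277 (6167 to 6387) and 19331 CPM (19087 to 19577) on days 0, 3, 7 and 14. Its ratio to day 0 was 0.691 on day 3, 0.389 on day 7 (0.370 to 0.410) and 1.20 on day 14 (1.14 to 1.26). Acta2 thus kept a larger part of its level on day 3 than the heavy chain did, and ended above day 0 in summed counts but not with cells weighted alike (log2 ratio −0.061). The tropomyosins Tpm1 and Tpm2, which lie along the actin filament and gate the access of myosin, stood at 1993, 1000.2, 688 and 2541 and at 3787, 2039, 955 and 3654 CPM. Tpm1 had a ratio to day 0 of 0.346 on day 7 (0.299 to 0.401) and 1.27 on day 14 (1.11 to 1.47), against 0.252 (0.226 to 0.282) and 0.965 (0.871 to 1.07) for Tpm2. The intervals of the tropomyosins did not overlap on day 7 or day 14, with Tpm1 the higher ratio each time.

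Cnn1, calponin 1, an actin-binding protein that slows the myosin motor, stood at 784 CPM on day 0 (624 to 972), 655 on day 3, 329 on day 7 and 1193 on day 14. Its ratio of 0.835 on day 3 (0.670 to 1.05) was the nearest to 1 of the 10 genes on that day, and its ratio of 1.52 on day 14 (1.22 to 1.92) was the highest. Tagln, transgelin or SM22 alpha, which crosslinks actin, stood at 9453, 6758, 2990.2 and 11681 CPM, with ratios to day 0 of 0.715, 0.316 and 1.24 (1.16 to 1.32) on days 3, 7 and 14. Smtn, smoothelin, a protein of contractile actin bundles, had the smallest ratio of its highest to its lowest day, at 689, 494, 331 and 611 CPM, with a ratio of 0.480 on day 7 (0.376 to 0.620) that turned with cells weighted alike (log2 0.0058) and without mixed sub-clusters, those in which no class had 80% of the cells. Cnn1 and Tagln thus ended above day 0, Tagln in summed counts alone (log2 ratio −0.031 with cells weighted alike), whereas the interval of Smtn on day 14, 0.696 to 1.14 around 0.886, covered 1.

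Des, desmin, was scarce. It had 9, 13, 28 and 55 UMIs in smooth muscle-like cells on days 0, 3, 7 and 14, which is 85.0 (38.9 to 161), 4.83, 14.0 and 44.3 CPM. The 9 UMIs of day 0 all came from 1 cell, and the later counts came from 3, 6 and 9 cells, so the ratios of Des to day 0 (0.0568 on day 3, 0.165 on day 7 and 0.521 on day 14) rest on a single uninjured cell.

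Over the list, the median log2 ratio to day 0 was −0.84 on day 3 (−0.99 to −0.68, the medians of the genes' bounds), −1.66 on day 7 (−1.83 to −1.36) and 0.00 on day 14 (−0.15 to 0.25), beside −0.21, −0.13 and −0.07 over all genes compared. At least 2-fold lower than day 0 were 3 of 10 genes on day 3, Myh11, Mylk and Des, where 13.8% of all genes with at least 20 UMIs were, and 10 of 10 on day 7, where 12.9% were. Mylk was not lower on day 3 with cells weighted alike, as given above, nor were Acta2 (log2 0.11) and Tagln (0.042) without mixed sub-clusters. On day 7, Smtn (0.10) and Cnn1 (0.22) were not lower without these sub-clusters, nor was Smtn with cells weighted alike. The day 7 median was nearer to 0 under other settings, at −0.44 without mixed sub-clusters, −0.48 in the Itga8-led cluster alone, −0.95 with cells weighted alike, −0.83 with a marker gate on single cells, −0.998 with the contractile and pathway genes kept for clustering, −0.90 with resolution 0.5, −0.83 with resolution 2, −1.11 without doublet removal and −0.75 with the contractile genes left out of the naming of clusters, a setting chosen after the data were seen. On day 14 the count was 0 of 10, where 9.86% of all genes were 2-fold lower and 10.8% were 2-fold higher. Between days 7 and 14, 9 of 10 genes were at least 2-fold higher at the later day, where 5.64% of all genes were. The 10th was Smtn, with a ratio of 1.85 (1.66 to 2.05) that turned below 1 in 4 other settings (log2 −0.30 to −0.088), and the others lay between 2.39 for Mylk, which turned without mixed sub-clusters (log2 −0.032), and 3.91 for Tagln.

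**Figure D2:**
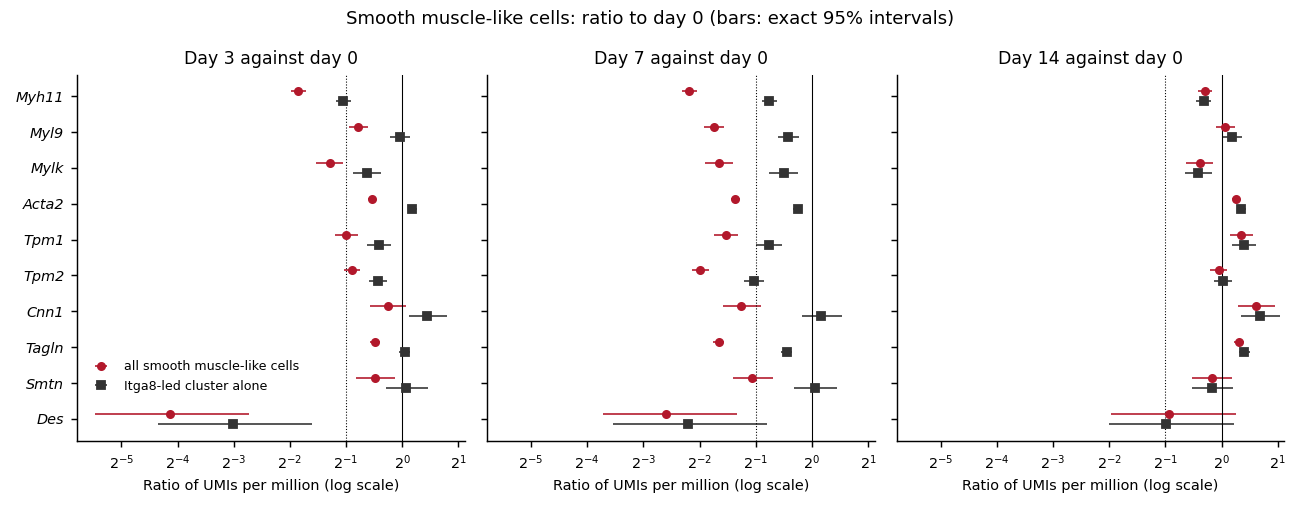
Ratio of CPM to day 0 (log scale, bars are exact 95% intervals) for each gene on days 3, 7 and 14, in all smooth muscle-like cells (circles) and in the Itga8-led cluster alone (squares); the dotted line marks 2-fold lower. On day 7 the circles all lie below 2-fold lower, whereas the squares of 8 genes lie above it, and on day 14 both symbols of each gene lie close together.

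These levels pool clusters that differed in their makeup by day. The cluster led by Itga8 and Acta2 held 7, 39, 36 and 63 cells on days 0, 3, 7 and 14 and gave 90.1%, 41.0%, 31.7% and 92.9% of the UMIs of the class. In it the contractile genes made up 4.28%, 4.06%, 3.15% and 5.02% of UMIs. A cluster led by Cryab and Npnt held 29 cells on day 3 with a contractile share of 1.51%, 13 on day 7 with 0.715% and 4 on day 14, and none on day 0. The cluster led by Lcn2 and Vcam1 held 19 cells on day 7, which were deeply sequenced (median 61120 UMIs), gave 58.7% of the UMIs of the class on that day and had a contractile share of 0.575%. A shallow cluster led by Hspb7 and Acta2 held 14, 25, 8 and 9 cells with shares of 3.87%, 3.63%, 0.714% and 3.9%, and gave at most 9.94% of the UMIs of the class on any day. The clusters led by Cryab and by Lcn2, with lower contractile shares than the Itga8-led cluster, thus held nearly all of their cells on days 3 and 7.

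Within the Itga8-led cluster the differences between days were smaller. The median ratio to day 0 was 0.855 on day 3 (0.741 to 0.983), 0.718 on day 7 (0.622 to 0.816) and 1.07 on day 14 (0.955 to 1.22). On day 7 the ratio was 0.592 for Myh11 (0.538 to 0.653), 0.488 for Tpm2 (0.434 to 0.551), 0.840 for Acta2 (0.795 to 0.887) and 1.04 for Smtn (0.803 to 1.36). Myh11 was below day 0 on all 3 later days in this cluster too, at 0.485, 0.592 and 0.80 of its day 0 level of 5485 CPM, whereas Acta2 was above day 0 on day 3 (ratio 1.14, 1.08 to 1.20) and day 14 (1.28, 1.21 to 1.35). At least 2-fold lower than day 0 were 2 of 10 genes on day 3, Myh11 and Des, where 11.8% of all genes were, and 2 of 10 on day 7, Tpm2 and Des, where 7.78% were. Between days 7 and 14, Tpm1, Tpm2 and Des (3 of 10) were at least 2-fold higher, where 4.43% of all genes were. The share of each cluster's UMIs that came from contractile genes is shown for every day in the bar plot.

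**Figure D3:**
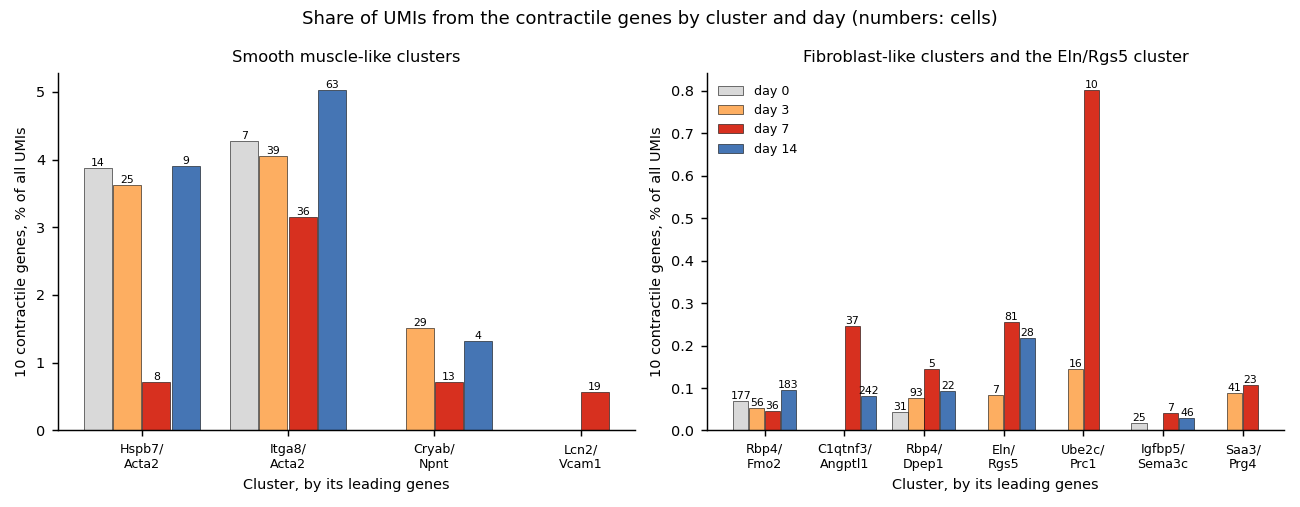
Bars give the UMIs of the 10 contractile genes as a percent of all UMIs in each cluster and day (linear axes that start at 0 and differ between the panels), for smooth muscle-like clusters on the left and for fibroblast-like clusters and the Eln/Rgs5 cluster on the right, with the number of cells above each bar. The Itga8-led cluster stays between 3.15% and 5.02%, and the highest bar among fibroblast-like clusters is that of the 10 cells of the Ube2c-led cluster on day 7, at 0.801%.

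Markers of other types moved with these levels. The 11 remaining smooth muscle markers, which exclude the contractile genes, summed to 6412, 3537, 2476 and 5324 CPM in smooth muscle-like cells on days 0, 3, 7 and 14, with Notch3 alone at 0, on day 0. The 11 fibroblast markers summed to 4259, 8893, 15479 and 9004 in the same cells, with Lum, Dpt and Serpinf1 at 0 on day 0 and none at 0 later. The fibroblast markers were thus highest on the day when the contractile genes were lowest, and their part in the result was not tested. The 6 pericyte markers summed to 708, 420, 360 and 681 CPM, lowest on day 7 too, and their part was not tested. The 8 endothelial markers summed to at most 37.8 CPM and the 11 monocyte and macrophage markers to at most 81.1 on any day. The median mitochondrial share of these cells was 4.80%, 5.73%, 7.71% and 5.86% and the ribosomal share 7.62%, 10.6%, 12.6% and 9.15%, both highest on day 7, and their part was not tested. With at least 500 genes and at most 10% mitochondrial UMIs the median log2 ratio was −1.07 on day 7, against −1.66. Depth differed as well, with a median of 929 UMIs per smooth muscle-like cell on day 0 against 20792.5, 15760.5 and 14344.5 later, so that the day 0 levels rest mainly on the 7 cells of the Itga8-led cluster.

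Of single smooth muscle-like cells with at least 2000 UMIs there were 7, 69, 68 and 68, so the ranges rest on unlike numbers of cells. Acta2 ran from 5625 to 27327 CPM in a cell on day 0 (median 16101), from 187 to 75057 on day 3 (median 8898, quartiles 4390 and 17031), from 0 to 31390 on day 7 (median 4731, quartiles 1648 and 11514) and from 390 to 51270 on day 14 (median 16070). Myh11 had no UMI in 0 of 7 cells on day 0, in 2 of 69 on day 3, in 14 of 68 on day 7 (20.6%) and in 1 of 68 on day 14. The median cell on day 7 therefore held less Acta2 than any of the 7 cells on day 0. Tagln was lowest on day 7 too but highest on day 14, with medians of 7409, 5863, 2683 and 9454 CPM. When each cell was thinned to 1000 UMIs, which leaves out shallower cells (11, 15, 4 and 8 smooth muscle-like cells), 10 of 10 cells on day 0, 92.4% of 79 on day 3, 75% of 72 on day 7 (63.4 to 84.5) and 100% of 70 on day 14 held UMIs of at least 3 contractile genes. In immune-like cells thinned alike the share was at most 0.0957% on any day, at median depths of 5147.5 to 7614 UMIs before thinning.

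**Figure D4:**
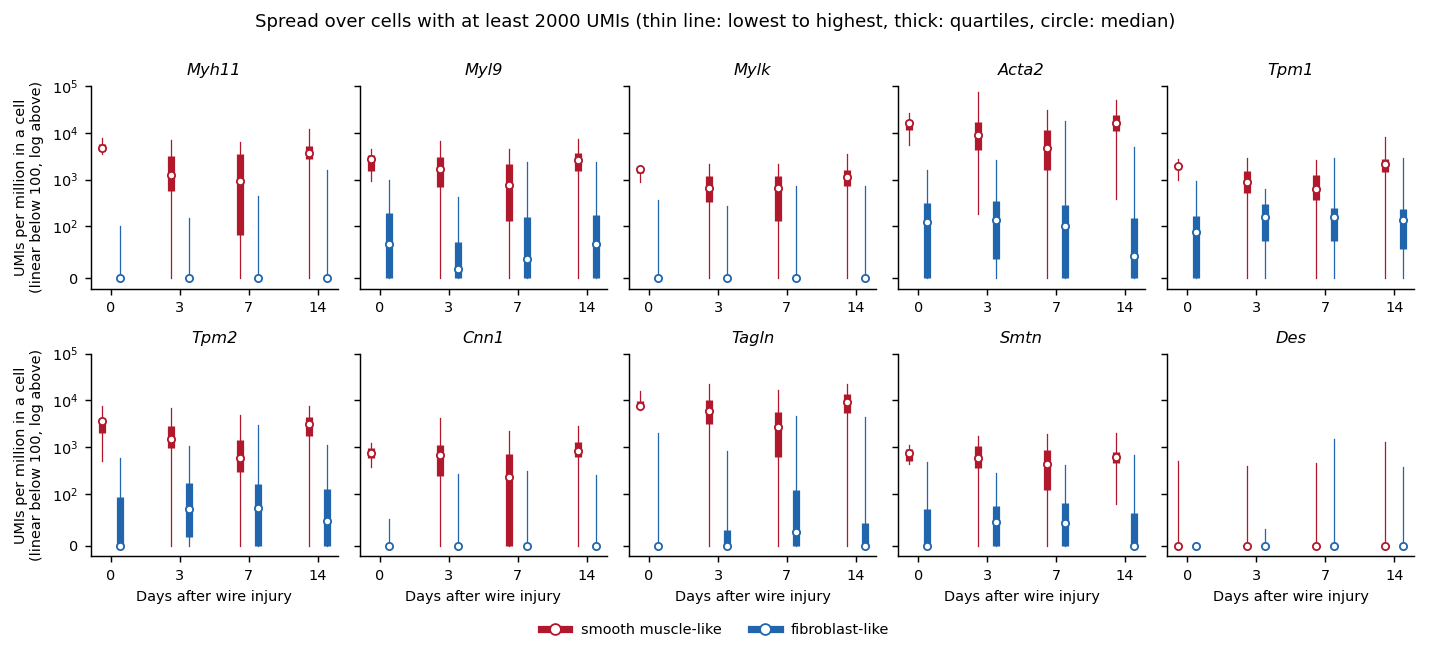
CPM of each gene in single cells with at least 2000 UMIs (linear below 100, log above) by day (evenly spaced), for smooth muscle-like and fibroblast-like cells: thin lines run from the lowest to the highest cell, thick lines span the quartiles and circles mark the median. For Acta2 on day 7 the fibroblast-like median is 102 while the highest cell reaches 17666.

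Fibroblast-like cells held the contractile genes at far lower levels, with a different order among them. Acta2 led on days 0, 3 and 7, at 207 (188 to 227), 327 (312 to 342) and 889 CPM (857 to 921), with 180 (171 to 189) on day 14, and Tpm1 led on day 14 with 198 (189 to 208). The ratio of Acta2 to day 0 was 1.58 on day 3 (1.42 to 1.75), 4.30 on day 7 (3.89 to 4.75) and 0.870 on day 14 (0.784 to 0.967). The tropomyosins stood at 116, 259, 275 and 198 (Tpm1) and at 65.4, 191, 248 and 95.4 (Tpm2), so that both were at least 2-fold above day 0 already on day 3, with ratios of 2.24 (1.96 to 2.57) and 2.91 (2.45 to 3.49). Among thin filament genes, the tropomyosins were thus ahead of Acta2 in their ratio to day 0 on day 3, and on day 7 Acta2 was ahead of Tpm1 (2.37, 2.06 to 2.73) while its interval overlapped that of Tpm2 (3.80, 3.18 to 4.56).

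The myosin motor genes in fibroblast-like cells showed another order. Myl9 stood at 113 CPM on day 0, 44.8 on day 3 (39.4 to 50.8), 166 on day 7 and 140 on day 14, and Mylk at 13.1, 3.99, 36.8 and 25.8. Both were lower on day 3 than on day 0, with ratios of 0.396 for Myl9 (0.331 to 0.474) and 0.305 for Mylk (0.167 to 0.550), on the day when the tropomyosins were higher. The interval of Mylk was not clear of the immune-like level on either day (3.34 CPM there on day 3). Myh11 had 6, 4, 81 and 59 UMIs in 5, 4, 13 and 29 cells, which is 2.70, 0.726, 24.2 (19.3 to 30.1) and 6.63 CPM. The interval of Myh11 stood above the immune-like level on day 7 alone, where the immune-like cells held 4.23 CPM (3.34 to 5.29).

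Of the actin-binding genes, Tagln stood at 35.2, 57.2, 354 and 99.3 CPM in fibroblast-like cells, with a ratio to day 0 of 10.1 on day 7 (8.01 to 12.8) and 2.82 on day 14 (2.24 to 3.61), the highest on day 14 among the 8 genes that could be compared. Cnn1 had 2, 48, 60 and 10 UMIs, or 0.902, 8.71, 18.0 and 1.12 CPM, and 10 and 8 cells held all of its UMIs on days 3 and 7. Smtn stayed between 44.9 and 71.0 CPM, with a ratio of 1.47 on day 7 (1.17 to 1.87). Des had 0 UMIs on day 0, which allows a level of up to 1.35 CPM (3 UMIs), then 0.363, 6.59 (4.13 to 9.97) and 2.02 CPM, so that it was at least 4.87-fold higher on day 7 than that limit. Apart from Smtn and Myl9, every gene of the list was therefore at least 2-fold above day 0 in the pooled fibroblast-like cells on day 7, although Mylk was below it without mixed sub-clusters (log2 −0.82).

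The median log2 ratio to day 0 in fibroblast-like cells was 0.68 on day 3 over 8 genes (0.42 to 0.94), 2.01 on day 7 over 10 (1.36 to 2.22) and 0.66 on day 14 over 8 (0.20 to 0.89), beside −0.05, 0.01 and −0.01 over all genes. Without mixed sub-clusters these medians were 0.02 and 0.04 over 7 genes on days 3 and 7, and −0.44 over 8 genes on day 14. At least 2-fold higher than day 0 were 3 of 8 genes on day 3, Tpm1, Tpm2 and Cnn1, where 11.6% of all genes were, 8 of 10 on day 7, where 11.3% were, and 2 of 8 on day 14, Myh11 and Tagln, where 9.40% were. On day 14 the interval of Myh11 against immune-like cells covered 1, and on day 0 its 6 UMIs, against 0 in immune-like cells, were too few to compare. With the immune-like level subtracted its log2 ratio was −1.42. That value rests on 5.62 CPM taken off on day 14 and 0 on day 0. On day 3, 2 of 8 were 2-fold lower, Myl9 and Mylk, where 10.7% of all genes were. Between days 7 and 14, 6 of 10 were at least 2-fold lower at the later day, where 5.59% of all genes were, from Tpm2 at 0.384 (0.349 to 0.423) to Cnn1 at 0.0625 (0.0285 to 0.123).

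The day 7 levels of fibroblast-like cells came from few cells. The 10 cells richest in Acta2 held 85.6% of its UMIs (2541 of 2969) among 118 cells, and the 10 richest in Tagln held 82.7% of its own and those richest in Myh11 96.3%, against 49.4% for Tpm1 and 40.9% for Smtn. On day 0 the 10 richest of 233 cells held 34.0% of the UMIs of Acta2. Among cells with at least 2000 UMIs, those above 1000 CPM of Acta2 were 7 of 184 on day 0, 7 of 109 on day 3, 8 of 106 on day 7 and 17 of 465 on day 14. The median cell held 127, 136, 102 and 43.1 CPM of Acta2 on days 0, 3, 7 and 14. The median fibroblast-like cell on day 7 thus did not hold more Acta2 than on day 0, and the difference between the pooled levels lay in the upper tail, which reached 17666 CPM on day 7 and 1589 on day 0.

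The clusters of the class differed in the same way. A cluster led by the cell cycle genes Ube2c and Prc1 held 16 cells on day 3, 10 on day 7 and 1 on day 14. Its 10 cells on day 7 held 44.3% of the contractile UMIs of the class with 11.5% of all its UMIs, at levels of 4067 for Acta2 (3869 to 4274), 1426 for Tagln, 817 for Tpm2 and 143 for Myh11 (107 to 186). The cluster led by C1qtnf3 and Angptl1, absent on days 0 and 3, had 37 cells on day 7 with Acta2 at 1055 CPM (991 to 1123) and 242 cells on day 14 with Acta2 at 153 (142 to 164). The cluster led by Rbp4 and Fmo2, found on all days, held Acta2 at 253, 202, 125 (101 to 152) and 278 CPM and Tagln at 43.2, 44.7, 23.6 and 35.9 on days 0, 3, 7 and 14. In the cluster that held 177 of the 233 fibroblast-like cells of day 0, neither gene was therefore higher on day 7 than on day 0. The clusters led by Saa3 and Prg4 (41 and 23 cells on days 3 and 7) and by Igfbp5 and Sema3c had contractile shares of at most 0.108%. Smooth muscle was the second match in the naming of both the Ube2c-led and the Saa3-led cluster. The Ube2c-led cluster was split from the same parent cluster as the smooth muscle-like clusters led by Cryab and by Lcn2.

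Without the Ube2c-led cluster, an alternative added after the data were seen, the median log2 ratio of fibroblast-like cells to day 0 was 0.03 on day 3, where Tagln turned to −0.26, and 1.30 on day 7. When the cells of 3 mixed sub-clusters were left out (no class with 80% of the cells), which removed 51 of 118 fibroblast-like cells on day 7 and 215 of 494 on day 14, the median was 0.04 on day 7 over 7 genes and −0.44 on day 14 over 8. A minimum of 100 UMIs, which also left 7 genes, gave 1.49 on day 7 in all fibroblast-like cells. The higher median on day 7 was thus not seen without these sub-clusters. The fibroblast-like cells among them lay in 2 sub-clusters, 250 of them with 79 cells of the Eln/Rgs5 cluster and 7 smooth muscle-like cells, and 35 with 23 and 48. The 11 fibroblast markers summed to 52820, 51754, 81015 and 94524 CPM in fibroblast-like cells, the 11 smooth muscle markers other than the contractile genes to 213, 69.0, 128 and 180, and the 11 monocyte and macrophage markers to 30.2, 367, 298 and 188. The other smooth muscle markers were therefore not higher on day 7 than on day 0 while the contractile genes were, and the part of each list in the result was not tested.

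In their pooled levels, smooth muscle-like and fibroblast-like cells remained apart on every day. By cluster this did not hold on day 7. The Ube2c-led fibroblast-like cluster then had a contractile share of 0.801%. The smooth muscle-like clusters led by Cryab, Hspb7 and Lcn2 had 0.715%, 0.714% and 0.575%, and the Itga8-led cluster had 3.15%. On day 0 the median log2 ratio of smooth muscle-like over fibroblast-like cells was 6.28 over 9 genes (6.13 to 6.44), on day 3 it was 5.27 over 9, on day 7 it was 2.62 over 10 (2.52 to 2.72) and on day 14 it was 5.35 over 10. All genes compared were at least 2-fold higher in smooth muscle-like cells, 9 of 9, 9 of 9, 10 of 10 and 10 of 10, where 16.7%, 13.1%, 9.79% and 10.9% of all genes were, although Des on day 7 turned with cells weighted alike (log2 −1.10). Myh11 separated the classes most on day 7, at 45.9-fold (36.8 to 58.0), followed by Cnn1 at 18.3-fold (14.0 to 24.3) and Mylk at 12.7-fold (10.6 to 15.5). Des and Tpm1 separated them least on that day, at 2.13-fold (1.17 to 3.9) and 2.51-fold (2.31 to 2.73). On day 0 Smtn and Tpm1 had the smallest ratios, 14.3-fold (10.47 to 19.4) and 17.2-fold (14.3 to 20.7), and Myh11 the largest, 1865-fold (851 to 5104), which rests on 6 UMIs in fibroblast-like cells.

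Against the level in pooled immune-like cells, which holds free RNA and any RNA of their own (Tpm1 gave 26.6% to 50% of their contractile UMIs), with the whole interval of the ratio above 1 and at least 20 UMIs, 6 of 10 genes stood higher in fibroblast-like cells on day 0, where 24.2% of all genes did, 7 on day 3 (37.1%), 10 on day 7 (36.0%) and 7 on day 14 (35.6%). Those that did not on day 0 were Myh11, Mylk, Cnn1 and Des. Myh11, Mylk and Des did not on day 3, and Myh11, Cnn1 and Des did not on day 14. Of these, Myh11 on day 3 was below the immune-like level (ratio 0.199, 0.0513 to 0.556), the intervals of Mylk on day 3 and Myh11 on day 14 covered 1, Mylk on day 0 had 0 UMIs in immune-like cells, and the others had too few UMIs to compare. In immune-like cells Acta2 was at 33.9, 33.5, 34.7 and 46.1 CPM and Tpm1 at 60.3, 28.0, 35.2 and 54.3, and the other genes were at most 19.1. In smooth muscle-like cells 9, 9, 10 and 10 of 10 stood higher (21.2%, 35.0%, 35.6% and 28.1% of all genes), Des being the exception on days 0 and 3 with fewer than 20 UMIs.

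The Eln/Rgs5 cluster had 7, 81 and 28 cells on days 3, 7 and 14 and none on day 0. On day 7 it held Acta2 at 1129 CPM (1080 to 1179), Tagln at 625 (589 to 663), Tpm1 at 275, Tpm2 at 256, Myl9 at 171 and Smtn at 92.8, but Mylk at 11.1, Myh11 at 3.34 (1.22 to 7.26), Cnn1 at 1.11 and Des at 0.556. Of its 81 cells, 10 held 75.9% of the Acta2 and 89.4% of the Tagln UMIs, so these levels rest on a few cells. In the pooled cluster the thin filament genes were near the fibroblast-like level and the motor heavy chain, kinase, calponin and desmin below it. Against fibroblast-like cells of day 7 the median log2 ratio was 0.02 (−0.16 to 0.19), with Tagln the highest at 1.76-fold (1.62 to 1.92) and Myh11, Mylk, Cnn1 and Des at least 2-fold lower, 4 of 10, where 7.03% of all genes were. Against smooth muscle-like cells of day 7 all 10 were at least 2-fold lower, where 13.1% of all genes were. On day 14, with 98450 UMIs in 28 cells, Acta2 was at 772 CPM (608 to 966), 4.29-fold above fibroblast-like cells (3.36 to 5.4), and 4 of 8 genes (Acta2, Tagln, Myl9 and Tpm2) were at least 2-fold higher than there, where 21.1% of all genes were. The median log2 ratio was 1.07 over these 8 genes (0.39 to 1.74), beside 0.58 over all genes. It takes in Myh11 at its floor of 3 UMIs, a bound of 4.60-fold. Myh11 had 0 UMIs in the cluster against 59 in fibroblast-like cells, so this bound is no measured rise. The pericyte markers summed to 923 CPM in it on day 7 and the fibroblast markers to 73711.

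Endothelial-like cells, 7, 40, 57 and 24 in number with median depths of 909.5 to 1706 UMIs, held contractile genes at 0.0449%, 0.163%, 0.142% and 0.0988% of UMIs. Acta2 was at 128, 761 (645 to 892), 599 (546 to 656) and 280 CPM and Tpm1 at 192, 438, 511 (463 to 564) and 224, while Myh11, Cnn1 and Des had at most 5 UMIs on any day. Mylk at 54.7 CPM on day 7 (39.6 to 73.7) was the only motor gene there above its fibroblast-like level of 36.8, although the intervals overlapped. Above the immune-like level stood 7, 7 and 3 of 10 genes on days 3, 7 and 14, where 19.4%, 30.0% and 7.49% of all genes did. On day 0 no contractile gene had the 20 UMIs needed for this comparison, where 7.27% of all genes stood above. The 11 smooth muscle markers other than the contractile genes summed to 219 and 289 CPM in these cells on days 3 and 7 and the fibroblast markers to 861 and 1834, beside 12.3 and 15.9 and 492 and 967 in immune-like cells. On day 14 the monocyte and macrophage markers summed to 4436 CPM, beside 4734 for the endothelial markers. Of the endothelial-like cells, 123 lay in a mixed sub-cluster with 48 smooth muscle-like cells, and the part of these cells and markers was not tested.

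The makeup of the contractile RNA differed between classes for some genes and was close for others. In smooth muscle-like cells Acta2 gave 38.0%, 43.1%, 44.7% and 40.8% of the UMIs of the 10 genes on days 0, 3, 7 and 14, Tagln gave 22.3%, 26.2%, 21.3% and 24.7%, and Myh11 gave 11.9%, 5.43%, 7.92% and 8.65%. In fibroblast-like cells Acta2 gave 34.4%, 34.5%, 42.6% and 22.7%, Tpm1 gave 19.3%, 27.4%, 13.1% and 25%, Myl9 gave 18.8%, 4.74%, 7.93% and 17.6%, and Tagln gave 5.85%, 6.04%, 17.0% and 12.5%. Myh11 never exceeded 1.16% of the contractile RNA in fibroblast-like cells. Acta2 was thus close between the classes on days 0 and 7, whereas Myh11 was apart on every day.

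**Figure D5:**
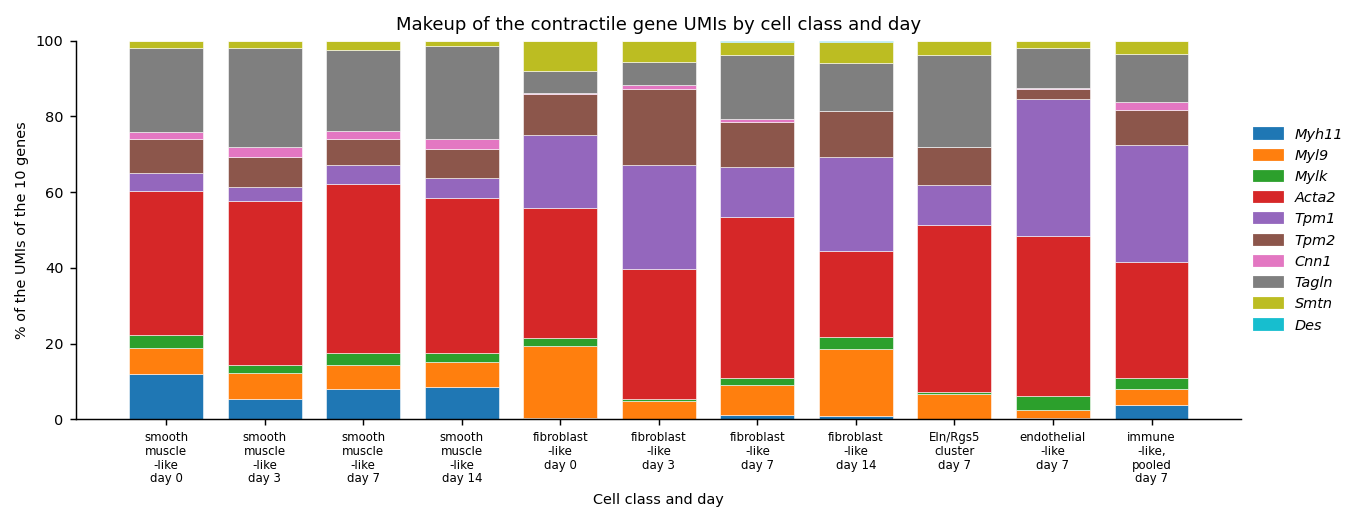
Stacked bars give the percent of the UMIs of the 10 contractile genes that came from each gene, by class and day. Myh11 takes 5.43% to 11.9% in smooth muscle-like cells and at most 1.16% in fibroblast-like cells, where Tpm1 takes 13.1% to 27.4%.

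Other genes of the apparatus were read from 4 lists, and the counts are of genes at least 2-fold from day 0. In smooth muscle-like cells on day 7, 9 of 15 accessory cytoskeletal genes were lower and 0 higher, 9 of 10 genes of calcium and phosphorylation control were lower and 0 higher, and none of the 4 transcriptional regulators (Srf, Myocd, Mkl1 and Mkl2) was past 2-fold, against 12.9% of all genes lower and 13.3% higher. Synpo2, an actin-bundling protein, had a ratio of 0.200 (0.158 to 0.254), Pdlim3 of 0.273 and Flna, filamin A, of 0.337. Ppp1r14a, the inhibitor of myosin phosphatase, had 0.192 (0.154 to 0.241), Ppp1r12a, the targeting subunit of that phosphatase, 0.233, and Cacna1c, the pore of the L-type calcium channel, 0.218 (0.103 to 0.513). The median log2 ratio of the control list was −1.53. The list counts of all days pool the smooth muscle-like clusters. The Lcn2-led cluster gave 58.7% of the UMIs of the class on day 7 and had 0 cells on day 0. In the Itga8-led cluster alone the day 7 median of the contractile genes was −0.48, against −1.66, and no such value is given for the lists. Of 11 non-muscle counterparts 1 was higher, the tropomyosin Tpm4 at 2.25 (1.57 to 3.34), and 1 lower, the myosin heavy chain Myh10 at 0.403 (0.308 to 0.535). These counts are no more than the shares of all genes, 13.3% higher and 12.9% lower. Tpm4 thus stood opposite to Tpm1 and Tpm2 on day 7, while Tpm3, the other non-muscle tropomyosin of the list, was not past 2-fold.

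On day 3 in the same cells, 5 of 15 accessory and 7 of 11 control genes were lower and none of the regulators was past 2-fold, against 13.8% of all genes lower and 11.2% higher, with Lmod1, leiomodin, at 0.427 and Pln, phospholamban, at 0.0393 on 10 UMIs a day. Tpm4 was already at 2.65 (1.85 to 3.94) and Myh10 at 0.383. On day 14 only Pln was past 2-fold, at 0.128 (0.0537 to 0.318) on 15 against 10 UMIs, but the control list had a median log2 ratio of −0.59, and the intervals of 6 of its 11 genes lay below 1, where 6.66% of all genes did. From day 7 to day 14, 8 of 15 accessory and 8 of 11 control genes were higher, where 5.64% of all genes were, among them Ppp1r14a at 4.20 (3.73 to 4.75) and Lmod1 at 3.26 (2.92 to 3.63).

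In fibroblast-like cells on day 7, 7 of 14 accessory genes were higher and 1 lower, 1 of 9 control genes was higher, and 1 of 4 regulators was higher, where 11.3% of all genes were higher and 8.0% lower. Actg2, the enteric smooth muscle actin, went from 0 UMIs on day 0 to 175 on day 7, at least 38.7-fold above a floor of 3 UMIs, and to 15 UMIs on day 14. Csrp1 had a ratio of 3.68 (2.91 to 4.72), Actn1, alpha-actinin 1, of 2.97 (2.58 to 3.43), Cacna1c of 3.67 (2.1 to 6.86) and Mkl1, a coactivator of serum response factor, of 2.45 (1.46 to 4.30), while Lmod1 was lower at 0.378 (0.294 to 0.484). Of the 11 non-muscle counterparts, Tagln2 at 2.22 and Myh9 at 2.00 were higher and Myl12b at 0.485 was lower. On day 3, 3 of 11 were higher, Tagln2 at 3.27 (3.02 to 3.56), Actg1 at 2.19 and Tpm4 at 2.04, and 1 was lower, Myl12b at 0.475, where 11.6% of all genes were higher and 10.7% lower. Tagln2 was thus higher and Myl12b lower by over 2-fold on both days.

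Over the 29 groups of class and day with at least 20 cells, the genes outside the list whose log2 levels followed the mean of the contractile genes most closely were Ncam1 (Pearson r = 0.975), Dmd (0.968), Jph2 (0.960), Carmn (0.959) and Cspg4 (0.957). The members themselves ran from 0.785 for Des to 0.980 for Tagln. The groups share libraries, and smooth muscle-like groups stand far above the others in contractile genes. How far the values rest on those groups was not tested, so they are a description of likeness.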

How the data were processed

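The deposited files hold raw UMI counts per gene and barcode, which the authors made with Cell Ranger (3.0.2 in the file headers), 1 library a day. The build named in the sources for these mouse data is a human one, so no coordinates were taken from it. Barcodes with at least 200 genes and at most 20% mitochondrial UMIs were kept, 453 failing, and the highest Scrublet scores, 0.8% per 1000 barcodes, were removed as doublets (106 barcodes, 1.72%). Some of these doublets had also failed the filter. The 5619 cells, with median depths of 4818 to 9320 UMIs by day, were clustered jointly (scanpy 1.11.5, leidenalg 0.10.2, 2000 variable genes, 30 components, 15 neighbours, resolution 1) and the 34 clusters were named from marker genes, at least 3 each. Counts were summed by class and day. Levels carry exact Poisson intervals and ratios conditional exact intervals (scipy 1.17.1), at 95%, which cover counting error only. A ratio needed at least 20 UMIs over both groups, a change past 2-fold was counted, and a count of 0 was set to a floor of 3 UMIs for a bound, which could count as lower but never as higher than the other group. List medians took such a bound at its value. The interval calculation was tested on simulated data.

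The members and lists were chosen with earlier results of these data known. The text names the 10 members, up to 3 highest and 3 lowest genes past 2-fold of each pathway list, the 5 other genes with the best correlation to the members' mean (log2 of CPM plus 10), and marker genes beside results. Alternatives covered the cell filter, doublets, resolution, variable genes, gate, weighting of cells, scaling, pseudocount, background and clusters left out. With 1 library a day no replicate could be left out and no test was run.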

Additional observations from a re-analysis of the deposited data

Results flagged for a closer look

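For 12 pairs of gene and day, the ratio to day 0 was below 1 in smooth muscle-like cells and above 1 in fibroblast-like cells with both counting intervals clear of 1. Over all genes, the interval lay below 1 in smooth muscle-like cells for 8.72%, 9.41% and 6.66% on days 3, 7 and 14. It lay above 1 in fibroblast-like cells for 22.8%, 22.0% and 16.5%. The share of all genes that met both is not given. In each case the difference was not tested, since each day had 1 library. Given as the log2 ratio in smooth muscle-like cells minus that in fibroblast-like cells, the difference was −2.16 for Tpm1 and −2.44 for Tpm2 at day 3. At day 7 it was −5.34 for Myh11, −3.46 for Acta2, −4.99 for Tagln, −2.29 for Myl9, −3.14 for Mylk, −2.78 for Tpm1, −3.91 for Tpm2, −5.57 for Cnn1 and −1.62 for Smtn, that is for 9 of the 10 genes. At day 14 it was −1.59 for Myh11, whose fibroblast-like level on that day was not above that of immune-like cells. In the Itga8-led cluster the smooth muscle-like ratios at day 7 were above 1 for Cnn1 (1.12) and Smtn (1.04), so the opposite direction of these genes was not seen in it. Without mixed sub-clusters the fibroblast-like log2 ratios of Myl9 (−0.50) and Mylk (−0.82) at day 7 were below 0, so theirs was not seen there. In that setting only 7 genes could be compared at day 7, and their fibroblast-like median was 0.037, against 2.01 over 10. The differences of Myh11 and Cnn1 at day 7 rest on 6 and 2 fibroblast-like UMIs on day 0.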

How the results depend on the processing

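No paired analysis was possible because each day had 1 library and no replicate numbers exist, and for the same reason no replicate could be left out. Of 241 list medians recomputed under other settings, 175 stayed within the counting interval of the reported value, 65 moved beyond it and 1 reversed. Of 2148 single gene values, 1511 stayed, 602 moved and 35 reversed. The values below are medians of log2 ratios over the list unless a gene is named, and the causes of the shifts were not tested. They compare with −0.84, −1.66 and 0.00 for smooth muscle-like cells at days 3, 7 and 14 against day 0 and 1.83 for day 14 against day 7. For fibroblast-like cells the reported values were 0.68, 2.01, 0.66 and −1.54, and for smooth muscle-like against fibroblast-like cells 6.28, 5.27, 2.62 and 5.35 at days 0, 3, 7 and 14.

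With the mean of each cell's level in place of summed counts, smooth muscle-like cells gave −0.40, −0.95 and 0.28 at days 3, 7 and 14 and 1.21 for day 14 against day 7, fibroblast-like cells 0.090 at day 3, and the classes differed by 5.60 at day 3 and 3.28 at day 7. In that weighting Mylk (0.088) and Smtn (0.33) at day 3, Smtn at day 7 (0.0058), and Myh11 (0.60), Mylk (0.55), Acta2 (−0.061) and Tagln (−0.031) at day 14 reversed in smooth muscle-like cells, as did Des between the classes at day 7 (−1.10). Without mixed sub-clusters, smooth muscle-like cells gave −0.27, −0.44 and, for day 14 against day 7, 0.54, fibroblast-like cells 0.022, 0.037, −0.44 (reversed) and −0.59, and the classes differed by 5.96, 5.27 and 6.82 at days 3, 7 and 14. The fibroblast-like medians in that setting were over 7, 7, 8 and 8 genes. Reversed there in smooth muscle-like cells were Acta2 (0.11) and Tagln (0.042) at day 3, Cnn1 (0.22) and Smtn (0.10) at day 7, and Mylk (−0.032) and Smtn (−0.30) between days 7 and 14. Reversed in fibroblast-like cells were Tagln at day 3 (−0.28), Myl9 (−0.50) and Mylk (−0.82) at day 7, Myl9 (−0.83), Mylk (−0.59) and Tpm2 (−0.29) at day 14, and Mylk between days 7 and 14 (0.23).

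With at least 500 genes and at most 10% mitochondrial UMIs, smooth muscle-like cells gave −1.01 at day 3, −1.07 at day 7 and 0.99 for day 14 against day 7, and the classes differed by 3.24 at day 7. A marker gate on single cells gave −0.56, −0.83 and 0.95, 1.15 for fibroblast-like cells at day 3, 3.70 between the classes at day 7, and reversed Myl9 in fibroblast-like cells between days 7 and 14 (0.072). Relative to the median over all genes, smooth muscle-like cells gave −0.63 at day 3. Without doublet removal the values were −1.11 at day 7, 1.08 for day 14 against day 7, and 3.05 and 5.59 between the classes at days 7 and 14. Resolution 0.5 gave −0.90, 1.02 and 3.10 for day 7, day 14 against day 7 and the classes at day 7. Resolution 2 gave −0.83, 0.90 and 3.01, with 5.53 between the classes at day 14, 2.67 and −2.07 in fibroblast-like cells at day 7 and between days 7 and 14, and Smtn at −0.088 in smooth muscle-like cells between days 7 and 14. With members and pathway genes kept for clustering the values were −0.998, 1.11 and 3.24. Adding 10 CPM gave 1.27 and −0.80 in fibroblast-like cells at day 7 and between days 7 and 14, and 6.01, 5.05 and 5.05 between the classes at days 0, 3 and 14. Subtracting the immune-like level gave 6.54 and 5.52 between the classes at days 0 and 14 and reversed Myh11 in fibroblast-like cells at day 14 (−1.42). Immune-like cells had 0 UMIs of Myh11 on day 0, so nothing was subtracted from it on that day. A minimum of 100 UMIs gave 6.07 and 2.82 between the classes at days 0 and 7.

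The next settings were chosen after the data had been seen. The Itga8-led cluster alone gave −0.23, −0.48 and 0.60 for days 3 and 7 and day 14 against day 7, with 5.99 and 3.82 against fibroblast-like cells at days 3 and 7. Acta2 (0.18), Tagln (0.045) and Smtn (0.077) at day 3, Cnn1 (0.17) and Smtn (0.052) at day 7 and Smtn between days 7 and 14 (−0.22) reversed in it. With all members left out of naming the values were −0.75 at day 7, 0.89 for day 14 against day 7 with Smtn at −0.091, 2.49 and −1.89 in fibroblast-like cells with Acta2 at 0.0003 at day 14, and 3.19 between the classes at day 7. Without the Ube2c-led cluster fibroblast-like cells gave 0.031, 1.30 and −0.64 for days 3 and 7 and day 14 against day 7, with Tagln at −0.26 at day 3, Myl9 (0.21) and Mylk (0.11) reversed between days 7 and 14, and 3.30 between the classes at day 7. Clustering each library on its own named 0 fibroblast-like cells at day 7, so it gave no value for comparisons with that group. Depth limits Myh11, Cnn1 and Des in fibroblast-like cells, and day 0 of the smooth muscle-like class, where 7 cells hold most UMIs.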

Other observations

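The 600 cells that met no naming rule were shallow, with median depths of 728 to 1652 UMIs by day, and held 63, 1409, 973 and 240 UMIs of the contractile genes at days 0, 3, 7 and 14. After thinning to 1000 UMIs, 32.8% of the 58 unnamed cells at day 3 that were deep enough (21.0 to 46.3) and 25.8% of 97 at day 7 (17.4 to 35.7) held at least 3 contractile genes. At days 0 and 14 the shares were 12.5% of 8 (0.316 to 52.7) and 40% of 20 (19.1 to 63.9). Contractile RNA was therefore also counted outside the named classes. No background was measured at this depth, so free RNA was not set apart from RNA of the cells themselves.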
